A study of Arabidopsis thaliana with 11 samples.

Results

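Of the 121244 introns listed for Arabidopsis thaliana, 1177 introns in 1007 genes carried an excess of reads beside their 5ʹ splice site in chromatin-bound RNA (CB-RNA). They were chosen by their CB-RNA read numbers: at least 50 exonic reads at both splice sites, at least 20 intronic reads at the 5ʹ site, and a 5ʹSS ratio at least 3 times the 3ʹSS ratio. The 5ʹSS ratio is the number of intronic reads over the number of exonic reads beside the 5ʹ splice site, and the 3ʹSS ratio is the same quantity at the 3ʹ splice site. The read minima alone were met by 44886 introns, called eligible here, so that 2.62% of eligible introns belonged to the group. The mirror choice, with the excess at the 3ʹ site, took 2399 of 48032 introns. All libraries came from untreated seedlings of the laboratory accession Col-0 at an age of 10 days, with no mutant among them. CB-RNA (2 libraries) was chromatin RNA with rRNA removed and polyadenylated RNA kept. RNAe (2 libraries) was chromatin RNA from which polyadenylated RNA and rRNA were removed, RNAe + RNAf (2 libraries) was again chromatin RNA with rRNA removed only, RNAf (2 libraries) was the polyadenylated part of chromatin RNA, and mRNA (3 libraries) was the polyadenylated RNA of the seedlings. Each group has one pooled set of reads, so no spread between replicates can be given. The tests and intervals of single introns below cover counting error alone. The intervals of medians and shares treat introns as separate draws and cover the spread over introns. The RNA came from whole seedlings, and a ratio that differs because some cells differ cannot be told apart from one that differs in all cells.

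An intron is removed in a pair of cuts. The 5ʹ splice site, or donor, is cut first and joined to the branch point inside the intron, and the 3ʹ splice site, or acceptor, is then cut as the exons are joined. In RNA that is still being made, the polymerase passes the donor before it passes the acceptor, so that an unfinished transcript can hold the start of an intron without its end. A transcript that uses another donor further downstream keeps the first bases of the intron as exon, and a transcript that is cut and polyadenylated inside an intron keeps its beginning but never holds its end. Introns of plants are mostly short, rich in T, begin with GT and end with AG.

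The sequences below show introns of 2 kinds that recur in the results. In the first 5, RefSeq (TAIR10.1) annotates a second donor downstream of the donor used in the intron table. Capitals mark the GT of both donors and, where the whole intron is printed, the final AG. All lie between coding exons and are written on the transcribed strand. UBC8 intron 2 is at chr5:16676136-16676482 on the plus strand, 347 bp long, and its first 60 bases are shown. RCA intron 6 is at chr2:16571067-16571190 (minus), NRP1 intron 8 at chr1:28018051-28018165 (minus), APE1 intron 8 at chr5:15473365-15473455 (minus) and PRR9 intron 2 at chr2:19233323-19233419 (plus).
UBC8 intron 2: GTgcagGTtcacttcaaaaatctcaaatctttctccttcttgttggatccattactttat
RCA intron 6: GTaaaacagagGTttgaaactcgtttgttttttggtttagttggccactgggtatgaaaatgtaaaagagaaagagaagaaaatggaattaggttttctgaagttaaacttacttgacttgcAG
NRP1 intron 8: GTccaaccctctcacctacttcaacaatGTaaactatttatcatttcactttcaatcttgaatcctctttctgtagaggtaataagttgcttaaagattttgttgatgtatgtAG
APE1 intron 8: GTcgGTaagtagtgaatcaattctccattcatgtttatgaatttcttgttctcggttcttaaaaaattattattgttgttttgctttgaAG
PRR9 intron 2: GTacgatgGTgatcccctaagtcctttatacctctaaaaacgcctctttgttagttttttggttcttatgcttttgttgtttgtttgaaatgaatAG

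In the next 3, RefSeq annotates no second donor, and capitals mark only the first GT and the final AG. HY5 intron 1 is at chr5:3594474-3594703 (minus), FCA intron 13 at chr4:9208649-9208813 (minus) and PTB1 intron 5 at chr3:53358-53451 (plus).
HY5 intron 1: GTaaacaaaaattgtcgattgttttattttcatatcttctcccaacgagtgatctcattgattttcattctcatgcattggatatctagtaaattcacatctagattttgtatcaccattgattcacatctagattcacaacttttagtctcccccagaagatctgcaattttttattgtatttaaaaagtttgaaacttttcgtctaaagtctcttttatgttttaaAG
FCA intron 13: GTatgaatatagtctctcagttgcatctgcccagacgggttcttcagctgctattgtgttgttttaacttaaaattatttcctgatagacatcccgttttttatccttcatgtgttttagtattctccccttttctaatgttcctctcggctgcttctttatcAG
PTB1 intron 5: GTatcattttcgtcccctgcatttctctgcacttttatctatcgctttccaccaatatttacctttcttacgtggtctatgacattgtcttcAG

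The values that chose the introns are given first, as a description without a test. Their median 5ʹSS ratio in CB-RNA was 0.431 and their median 3ʹSS ratio 0.0965. Over all eligible introns the medians were 0.335 and 0.333. The chosen introns therefore lay further from a typical intron at the 3ʹ site, where reads were few, than at the 5ʹ site. They had a median of 66 intronic reads at the 5ʹ site and 12 at the 3ʹ site, against 50 and 54 in all eligible introns. The exonic reads differed less, with medians of 156 at the 5ʹ and 129 at the 3ʹ site. In 1046 of the introns (88.9%) the intronic reads alone were at least 3 times as many at the 5ʹ as at the 3ʹ site. In 21 introns they were no more numerous at the 5ʹ site, and the rule was met through the exonic reads. A 5ʹSS ratio above 1, with more intronic than exonic reads at the donor, was found in 93 of the chosen introns (7.90%) and in 1.94% of eligible introns.

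The fold between the sites had a median of 4.01 in the 1165 introns with an intronic read at the 3ʹ site. The other 12 had none there, and against a floor of 3 reads their folds were at least 5.21 to at least 22.9. At the edge of the rule, AT3G55410 intron 7 had 34 intronic and 68 exonic reads at the 5ʹ site and 9 and 54 at the 3ʹ site, a fold of 3. Just outside were AT4G40030 intron 1, with 416 and 368 against 236 and 626, and AT2G32170 intron 1, with 29 and 197 against 8 and 163, each with a fold of 2.999. The folds on either side of this edge were nearly equal, and the threshold is a cut through a continuous range.

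The chosen introns were long. Their median length was 203 bp (95% interval 192 to 217) over the 1168 with a usable start and end, against 99 bp in eligible introns. Introns of at least 300 bp made up 29.7% of them (95% Wilson interval 27.2 to 32.4) and 11.5% of eligible introns. Of the eligible introns under 100 bp, 1.01% were chosen (228 of 22662). The share was 2.63% from 100 bp to under 200 bp (348 of 13212) and 6.61% from 200 bp to under 400 bp (of 6041). It was 6.66% from 400 bp to under 800 bp (164 of 2463) and 6.02% at 800 bp or more (29 of 482). The share rose up to 200 bp and the intervals of the 3 longer classes overlapped. The 3ʹ excess followed length as well, from 1.02% under 100 bp to 15.0% from 400 bp to under 800 bp. Greater length thus accompanied asymmetry in both directions. A read longer than a short intron can reach both of its splice sites, which may tie the ratios of that intron together. How much of the low shares under 100 bp comes with this was not tested, because the width of the counting window is not given.

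**Figure D1:**
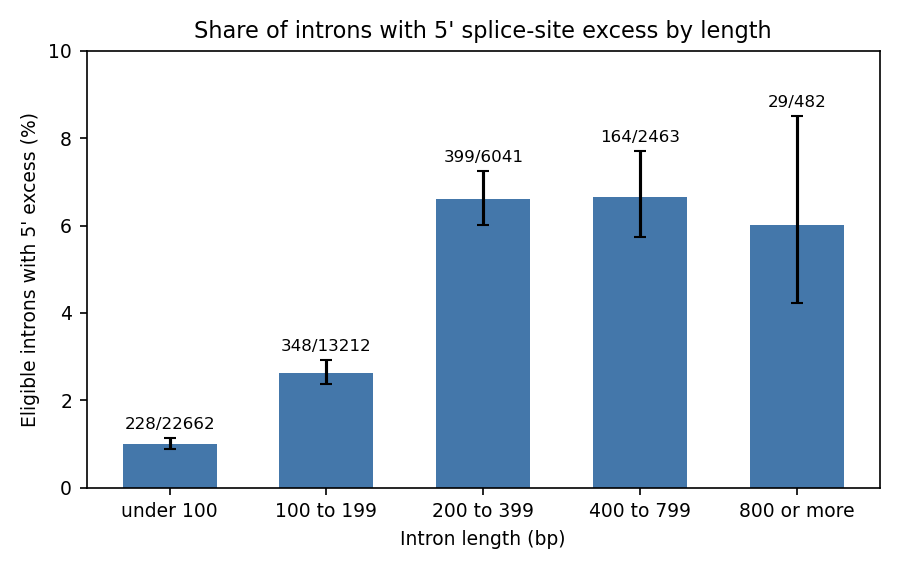
Share of eligible introns (y axis, percent) with the 5ʹ excess in CB-RNA, by intron length in bp (x axis). Bars are shares, error bars 95% Wilson intervals, and the numbers printed over them the introns chosen and eligible. The share was 1.01% under 100 bp and between 6.02% and 6.66% in the 3 classes from 200 bp. A read can reach both splice sites of a short intron, and the part of this in the low share was not tested.

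First introns made up 18.9% of the group (222 of 1177, 95% interval 16.7 to 21.2) and 12.3% of eligible introns, while last introns made up 7.56% and 15.8%. First introns are often long, and within length classes the first position stood out less. At 200 bp or more, 6.31% of first introns were chosen (95% interval 5.44 to 7.32) and 7.10% of introns between the first and the last (6.45 to 7.81). Under 200 bp the shares were 1.97% (1.53 to 2.54) and 1.75% (1.60 to 1.91). The intervals of first and middle introns overlapped in both classes. Last introns remained below middle introns in both, with 4.41% (3.28 to 5.91) among long and 0.675% (0.488 to 0.933) among short introns. The introns tended to lie in long genes with many introns: 22.8% were in genes with at least 20 introns, against 13.5% of eligible introns. Their spread over the 5 chromosomes and the strands was close to that of eligible introns, with 47.8% on the plus strand against 49.7%.

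Most genes held a single such intron. Of the 1007 genes, 878 had 1, 102 had 2, 16 had 3, 9 had 4, 1 had 5 and 1 had 6 of them. The intron before a chosen one had a median log2 asymmetry of -0.21 in CB-RNA, and the intron after it -0.16. Here and below the log2 asymmetry is log2 of the 5ʹSS over the 3ʹSS ratio with a pseudocount of 1 on every read number, so that values above 0 mean more intronic reads, relative to exonic reads, at the donor. Of the neighbours with enough reads, 1.61% before and 1.48% after were themselves in the group, against 2.62% of eligible introns.

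The other fractions were not used by the rule, and each offers the same measure in other libraries. Introns with at least 10 exonic reads at both sites in a fraction were compared, namely 1167 of the 1177 for RNAe, 1152 for RNAe + RNAf, 1157 for RNAf and 1141 for mRNA. The log2 asymmetry was above 0, with the donor side higher, for 91.2% of them in RNAe and 91.1% in RNAe + RNAf. It was above 0 for 51.2% in RNAf and 65.6% in mRNA. Over eligible introns these shares were 46.2%, 46.8%, 36.9% and 44.5%. Only 1098 of the chosen introns measured in RNAf and 949 in mRNA had an intronic read at either site. For the rest, the sign came from the exonic reads and the pseudocount alone. The asymmetry was thus shared by the chromatin fractions that hold unfinished transcripts. In polyadenylated chromatin RNA the split was near even, which was still above the 36.9% of eligible introns. The introns were taken for extreme values in CB-RNA, so some fall in size in other libraries comes with the choice itself, and its part was not tested. That part can be present in RNAe + RNAf, which was prepared like CB-RNA, as in the rest, and its size may differ between them.

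The median log2 asymmetry was 1.91 in CB-RNA, where it was fixed by the rule. RNAe had a median of 1.25 (95% interval 1.18 to 1.34) and RNAe + RNAf one of 1.37 (1.31 to 1.45). The median of RNAf was 0.02 (-0.03 to 0.07) and that of mRNA 0.24 (0.15 to 0.38). Eligible introns had medians of -0.05, -0.04, -0.15 and -0.05 in the same order. A 5ʹSS ratio at least 3-fold the 3ʹSS ratio on this scale was found in 433 introns in RNAe (37.1%), against 2.24% of eligible introns measured there. It was found in 493 in RNAe + RNAf (42.8%, background 3.28%), 209 in RNAf (18.1%, background 2.89%) and 257 in mRNA (22.5%, background 5.34%). Although the medians of RNAf and mRNA were near 0, a minority of introns well above the background stayed strongly asymmetric there. The reverse asymmetry of at least 3-fold was found in 3 introns in RNAe (0.257%, eligible introns 2.58%) and 13 in RNAe + RNAf (1.13%, eligible 3.61%). In RNAf it was found in 113 (9.77%, eligible 5.84%) and in mRNA in 58 (5.08%, eligible 6.99%), so that only in RNAf was its share above that of eligible introns.

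**Figure D2:**
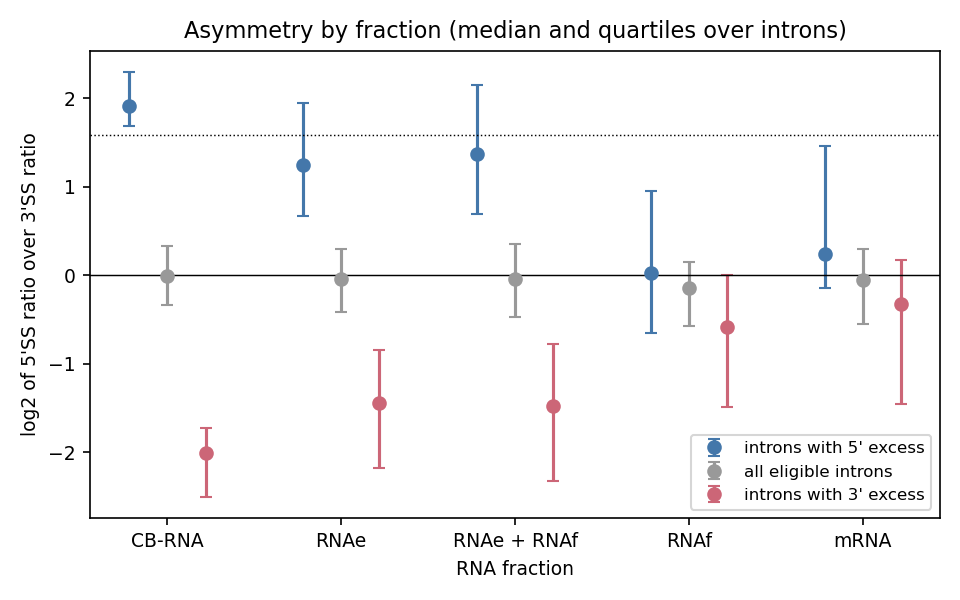
Log2 of the 5ʹSS over the 3ʹSS ratio (y axis, pseudocount 1) in the 5 RNA fractions (x axis). Points are medians over introns and bars the quartiles, for introns with the 5ʹ excess, all eligible introns and introns with the 3ʹ excess, and the dotted line marks 3-fold. The median of the 5ʹ group was 1.91 in CB-RNA, against 1.25 for RNAe, 1.37 for RNAe + RNAf, 0.02 for RNAf and 0.24 for mRNA.

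Reads of each intron were also compared between its sites by a two-sided Fisher's exact test within each fraction, with Benjamini-Hochberg adjustment over all introns tested. The test passed with the higher ratio at the 5ʹ site for 455 of 1167 chosen introns in RNAe (39.0%), against 1.86% of all introns tested. In RNAe + RNAf it passed for 372 of 1149 (32.4%, all introns 1.46%), in RNAf for 175 of 1098 (15.9%, all introns 2.06%) and in mRNA for 155 of 949 (16.3%, all introns 2.81%). With the higher ratio at the 3ʹ site it passed for 0 introns in RNAe (all introns 3.74%) and 0 in RNAe + RNAf (all introns 2.74%). It passed for 42 in RNAf (3.83%, all introns 5.85%) and for 16 in mRNA (1.69%, all introns 4.47%), in each fraction a smaller share than among all introns. The chosen introns had a median of 34 intronic reads at the 5ʹ site for RNAe, 23 for RNAe + RNAf, 8 for RNAf and 4 for mRNA. At these read numbers an asymmetry was not detectable in many introns of RNAf and mRNA. Among those with at least 20 intronic reads in the fraction, both sites summed, the median asymmetry was 0.17 in RNAf (529 introns) and 0.85 in mRNA (321 introns), and 28.7% and 37.7% were at least 3-fold higher at the 5ʹ site. Eligible introns under the same minimum had medians of -0.15 and -0.10, and 1.69% and 3.77% of them passed that fold. The minimum counts the same intronic reads as the asymmetry. An intron with a 5ʹ excess in the fraction can pass it through its 5ʹ reads alone. How much of these values comes with the minimum was not tested.

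The levels behind these ratios differed by site. In RNAe the chosen introns had a median 5ʹSS ratio of 0.448 and a 3ʹSS ratio of 0.162, where eligible introns had 0.352 and 0.363. In RNAe + RNAf the values were 0.415 and 0.140 against 0.302 and 0.312. In both, the chosen introns stood above the typical intron at the donor and below it at the acceptor. In RNAf they had 0.0255 and 0.0233 against 0.0512 and 0.0622, and in mRNA 0.00522 and 0.00246 against 0.00810 and 0.00897. In polyadenylated RNA most of the chosen introns thus held fewer reads than the typical intron at either site.

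Annotated alternative donors separated the introns. RefSeq has a transcript with a donor inside the intron for 72 of 1168 (6.16%, 95% interval 4.92 to 7.69), against 1.63% of eligible introns (1.51 to 1.75) and 2.51% of introns with the 3ʹ excess. Alternative acceptors gave the mirror picture, with 2.48% in the 5ʹ group, 2.10% in eligible introns and 7.61% in the 3ʹ group. The nearest second donor lay from 4 to 631 bases downstream, with a median of 66, and within 20 bases in 22 introns. The second intron began with GT in 69 of the 72. The chosen introns were retained whole in another transcript less often than eligible ones (35 of 1168, 2.997%, 95% interval 2.16 to 4.14, against 5.72%, 5.51 to 5.94), and a transcript ended inside the intron in 0.599%, against 0.633%. An exon of another transcript lay inside 27 of the 1168 (2.31%, 95% interval 1.59 to 3.34), against 0.682% of eligible introns and 1.755% of the 3ʹ group. Introns with such an exon were not set apart in the classes that follow.

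In the 72 introns with a second donor the asymmetry was also found in mRNA. Their median log2 asymmetry was 1.51 for RNAe, 1.63 for RNAe + RNAf, 2.13 for RNAf (95% interval 0.72 to 3.54) and 2.82 for mRNA (1.97 to 4.28). Their median 5ʹSS ratio was 0.149 in mRNA, and 47 of 71 measured there (66.2%) were at least 3-fold higher at the 5ʹ site. Of eligible introns with a second donor, 28.0% passed that fold in mRNA. The 1064 introns for which RefSeq has neither a second donor, nor a transcript that retains the intron, nor one that ends inside it had medians of 1.23 in RNAe and 1.35 in RNAe + RNAf, but -0.02 (-0.08 to 0.03) in RNAf and 0.14 (0.11 to 0.24) in mRNA. Their median 5ʹSS ratio in mRNA was 0.00417. Their median intronic reads at the 5ʹ and 3ʹ sites were 6 and 7 in RNAf and 3 and 2 in mRNA. At least 20 intronic reads, both sites summed, were found in 432 of them in RNAf and 233 in mRNA. Here too an intron can pass this minimum through its 5ʹ reads alone. The median asymmetries of these were 0.062 (-0.019 to 0.15) and 0.503 (0.309 to 0.676). At least 3-fold higher at the 5ʹ site were 21.99% and 27.47%, against 1.69% and 3.77% of eligible introns under the same minimum. Over all measured introns, the intervals of this class and the second-donor class did not overlap in RNAf and mRNA. In RNAe and RNAe + RNAf both classes were asymmetric.

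**Figure D3:**
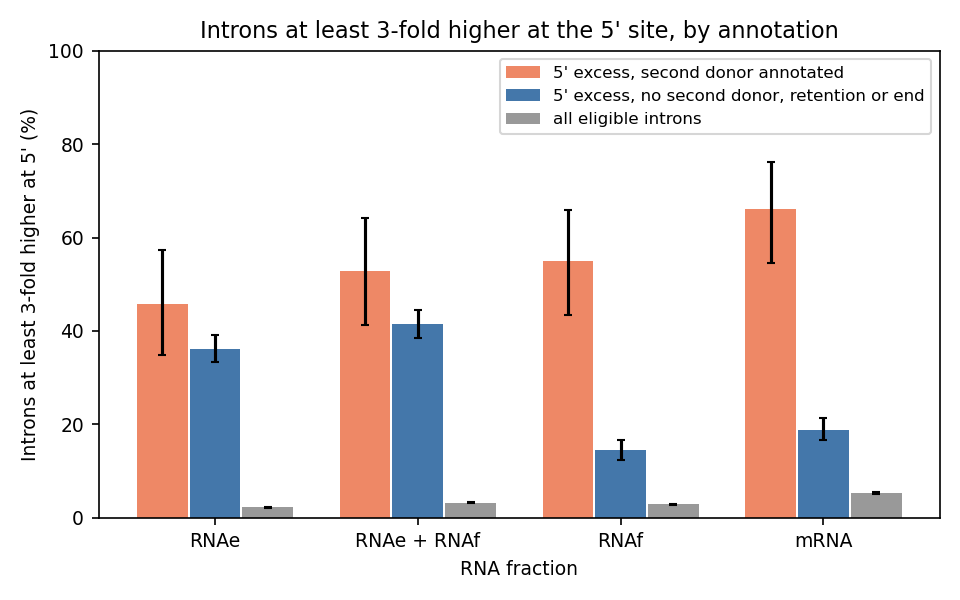
Percent of measured introns at least 3-fold higher at the 5ʹ site (y axis) in the 4 fractions that the rule did not use (x axis). Bars are shares with 95% Wilson intervals, for introns with the 5ʹ excess and a second donor in RefSeq, those with no second donor, retention or transcript end annotated, and all eligible introns. With a second donor the share was 66.2% in mRNA, and in the next class 18.9%.

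UBC8 encodes a ubiquitin-conjugating enzyme, which passes ubiquitin to target proteins, and the second donor of its intron 2 lies 6 bases downstream of the first. At the 5ʹ site, CB-RNA gave 385 intronic reads, a ratio of 0.965. The intronic and exonic reads there numbered 317 and 323 (RNAe), 252 and 260 (RNAe + RNAf), 1932 and 1977 (RNAf), and 14362 and 15704 (mRNA). At the 3ʹ site the numbers were 31 and 456, 45 and 391, 9 and 293, 51 and 2020, and 10 and 14650, from CB-RNA to mRNA. The 5ʹSS ratio was between 0.914 and 0.981 in every fraction, while the 3ʹSS ratio fell from 0.115 in RNAe to 0.000683 in mRNA. Intronic reads at the donor were thus nearly as many as exonic reads, also in mature mRNA.

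RCA encodes Rubisco activase, the chaperone that keeps the carbon-fixing enzyme of green tissue active, and this marker of green tissue had 268749 exonic reads at the site in mRNA. Its intron 6, the last, has a second donor 11 bases downstream, and RefSeq also has a transcript that retains it. The 5ʹSS ratio was 0.482 for CB-RNA, 0.464 for RNAe, 0.647 for RNAe + RNAf, 0.479 for RNAf and 0.468 for mRNA. The 3ʹSS ratio was 0.138, 0.0531, 0.378, 0.117 and 0.0188 in the same order. The donor side held about the same share of reads in 4 of the 5 fractions while the acceptor side was lowest in mRNA, and the adjusted p of the Fisher test was 0.000845 in RNAe + RNAf, where the sites were closest. This intron and the next 2 were singled out after their values were seen, for their reads in mRNA.

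NRP1, a histone chaperone related to NAP1, has a second donor 28 bases into intron 8. It had 3400 intronic and 3276 exonic reads at the 5ʹ site and 6 and 3496 at the 3ʹ site in mRNA, and 85 and 86 against 2 and 84 in CB-RNA. APE1, needed for the acclimation of photosynthesis, has one 4 bases into intron 8, with 2953 and 3476 against 2 and 3294 in mRNA and 101 and 128 against 12 and 116 in CB-RNA. In both genes the acceptor side was almost free of intronic reads in mRNA and the donor side was not. PRR9 encodes a pseudo-response regulator of the circadian clock, and the second donor of its intron 2 lies 8 bases downstream. Its 5ʹSS ratio was 0.515 in CB-RNA, 0.458 in RNAe, 0.382 in RNAf and 0.376 in mRNA, and its 3ʹSS ratio 0.110, 0 (of 25 exonic reads), 0.0302 and 0.0104. The gene was not counted in RNAe + RNAf.

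Of the 1111 introns measured in all 4 other fractions, 61 were at least 3-fold higher at the 5ʹ site in every one (5.49%), against 0.17% of eligible introns measured in all 4. A second donor is annotated in 20 of the 61. ERD15, induced early by dehydration, was one of them, with a second donor 19 bases into intron 1 (chr2:17269491-17269719, plus strand). Its 5ʹSS ratio was 1.23 for CB-RNA, 1.27 for RNAe, 1.38 for RNAe + RNAf, 1.16 for RNAf and 1.13 for mRNA. Its 3ʹSS ratio was 0.373, 0.356, 0.279, 0.259 and 0.0579. In CB-RNA it had 1412 intronic and 1148 exonic reads at the 5ʹ site and 4943 and 13255 at the 3ʹ site. The intronic reads were fewer at the 5ʹ than at the 3ʹ site in all fractions but mRNA, and the asymmetry of the ratios came with the exonic reads. RefSeq also has a transcript that retains the intron. RDH2, a rhodanese homologue, has its second donor 10 bases into intron 1 (chr1:5622051-5622478, minus strand) and had 1047 and 941 reads at the 5ʹ site against 1 and 1153 at the 3ʹ site in mRNA. MOS1, modifier of snc1 in plant immunity, has one 64 bases into intron 1 (chr4:12732803-12733384, plus strand), with 406 and 364 against 2 and 363. AT5G46190, a KH domain protein expected to bind RNA, has one 4 bases into intron 1 and lower values in mRNA, 75 and 390 against 14 and 383, a fold of 5.26. AT5G22794 intron 6, in a gene of an uncharacterized protein, has no annotated second donor, but an exon of another transcript overlaps its first 100 bases. It had 49 and 52 against 0 and 57 in mRNA, a fold of at least 17.9.

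**Figure D4:**
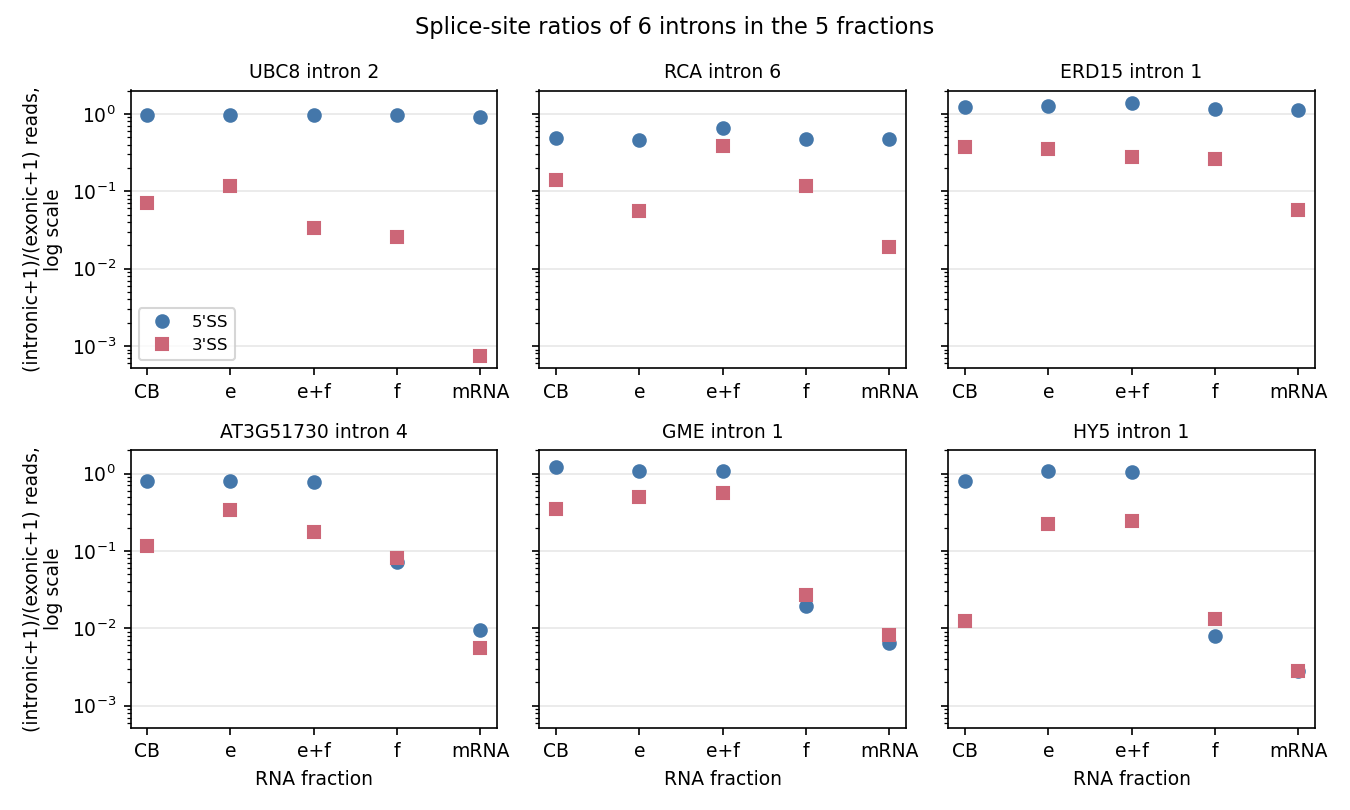
Ratio of intronic to exonic reads with 1 added to each (y axis, log scale) at the 5ʹ splice site (circles) and the 3ʹ splice site (squares) of 6 introns in CB-RNA, RNAe, RNAe + RNAf, RNAf and mRNA (x axis, CB, e, e+f, f and mRNA). In UBC8, RCA and ERD15 the 5ʹ site stayed above the 3ʹ site in all 5 fractions, and in AT3G51730, GME and HY5 the sites lay closer together in RNAf and mRNA than in CB-RNA.

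Another class was strongly asymmetric in the fractions with unfinished RNA and stayed under 3-fold in polyadenylated RNA. Of the introns measured in all 4 other fractions, 133 were at least 3-fold higher at the 5ʹ site in RNAe and RNAe + RNAf and under that fold in RNAf and mRNA (12%, against 0.576% of eligible introns). An intron with hardly any intronic reads in RNAf and mRNA also stays under that fold, so balance there is not shown for the class. Of all chosen introns measured, 158 in RNAf and 287 in mRNA had no intronic read at the 5ʹ site. HY5, in this class, encodes a bZIP transcription factor. In CB-RNA its 230 bp intron 1 had 63 intronic and 78 exonic reads at the 5ʹ site. The 3ʹ site had 0 and 79, a fold of at least 21.3. The numbers were 50 and 47 against 10 and 49 in RNAe and 74 and 71 against 16 and 68 in RNAe + RNAf. In RNAf they were 0 and 125 against 1 and 151, and in mRNA 2 and 1055 against 2 and 1078. The Fisher test passed in RNAe (adjusted p = 0.0008) and RNAe + RNAf (0.00013). Hardly any intronic read was left at either site in the polyadenylated fractions, too few to compare the sites there.

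AT3G51730, a saposin B domain protein, had more reads in intron 4 (chr3:19187754-19188056, plus strand), and is outside that class because its fold was 2.45 in RNAe. Its 5ʹSS ratio was 0.793 for CB-RNA, 0.804 for RNAe, 0.782 for RNAe + RNAf, 0.0709 for RNAf and 0.00929 for mRNA, and its 3ʹSS ratio 0.110, 0.328, 0.165, 0.0799 and 0.00544. The adjusted p of the Fisher test was 0.000103 for RNAe, 1.06e-06 for RNAe + RNAf, 0.724 for RNAf and 0.0465 for mRNA. GME, GDP-mannose epimerase of the vitamin C pathway, is also outside the class and had folds of 3.48 for CB-RNA, 2.19 for RNAe, 1.93 for RNAe + RNAf, 0.706 for RNAf and 0.760 for mRNA at its 700 bp intron 1 (chr5:10864026-10864725, minus strand). APE2, the triose-phosphate translocator of the chloroplast envelope, had 3.06, 3.58, 3.36, 0.815 and 1.61 at intron 4 (chr5:18698589-18698811, plus strand), where a tRNA gene lies on the opposite strand. In these introns the fold was lower in RNAf and mRNA than in RNAe. AT1G07590 intron 1 (chr1:2338986-2339265, minus strand), with the most intronic reads of the group at the 5ʹ site, 2622 in CB-RNA, overlaps AT1G07600 on the same strand. Its folds were 4.13, 4.01, 4.79, 1.40 and 1.60, and reads of the neighbouring gene cannot be told apart from its own.

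Of the genes with several such introns, 5 are described: the gene with 6, the gene with 5, and, of the 9 genes with 4, the 3 with the most intronic reads at the 5ʹ sites of these introns. ATM, the kinase of the response to broken DNA, had 6 of its 36 eligible introns in the group, among 78 introns, and their 5ʹSS ratios in CB-RNA ran from 0.0681 at intron 14 to 0.509 at intron 56. Their log2 asymmetry in RNAe + RNAf was 2.10, 2.04, 0.64, 1.25, 1.05 and 0.80 at introns 6, 9, 14, 36, 53 and 56, the first of these on 2 intronic reads. In mRNA, where no more than 4 intronic reads were counted at either site, the values were 0.11, 0.10, 0.17, 0.07, -0.07 and -2.50. Introns 9, 14, 36 and 53 had no intronic read at either site there, so their values hold only exonic reads and the pseudocount. AT1G48090, a calcium-dependent lipid-binding protein, had 5 of 47. TOR, the kinase that couples growth to nutrients, had 4 of 30, with 174 and 261 reads against 25 and 230 at intron 11 in CB-RNA and an asymmetry of 2.57 there, 2.89 in RNAe and 2.23 in RNAe + RNAf. ACC1, an acetyl-CoA carboxylase, had 4 of 26, and SEC6, a subunit of the exocyst that tethers secretory vesicles, 4 of 21. Within these genes the values of the introns in mRNA differed, many of them on few intronic reads or none. In mRNA, introns 8, 12 and 30 of ACC1 had asymmetries of 0.12, -0.61 and 1.89. These rested on 1 and 1, 1 and 2, and 10 and 2 intronic reads at the 5ʹ and 3ʹ sites. Intron 1 of ACC1 had only 8 exonic reads at its 5ʹ site in mRNA, under the minimum of 10. SEC6 intron 16, with a second donor 66 bases downstream, had an asymmetry of 5.25 in RNAf and 4.88 in mRNA, while introns 7 and 22 had 1.57 and 1.01 in mRNA on 2 and 1 intronic reads. SEC6 intron 9 had 2 exonic reads at its 5ʹ site in mRNA and was not measured there.

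Counts in 3 gene lists were set beside all eligible introns, of which 2.62% were in the group. Among 27 splicing regulators (SR proteins, U2AF subunits, glycine-rich and polypyrimidine tract-binding proteins), 3 of 140 eligible introns belonged to it (2.14%). SR30, an SR protein that steers splice-site choice, had 102 and 323 reads against 24 and 313 at intron 11, and folds of 4.12 for CB-RNA, 4.13 for RNAe, 4.84 for RNAe + RNAf, 0.952 for RNAf and 1.37 for mRNA. PTB1, which binds pyrimidine tracts, had 71 and 138 against 7 and 55 at intron 5, and RS2Z32, a plant-specific SR protein, 135 and 110 against 29 and 82 at intron 1. In RNAe and RNAe + RNAf the Fisher test passed for these introns except PTB1 in RNAe (adjusted p = 0.189) and SR30 in RNAe + RNAf (0.0649). In RNAf the log2 asymmetries were -0.07 for SR30, -0.29 (95% interval -1.29 to 0.71) for PTB1 and 0.00 (-1.72 to 1.71) for RS2Z32. The last rested on 4 and 5 intronic reads, and the wide intervals do not show balance.

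Among 5 genes known for polyadenylation inside an intron, 3 of 31 eligible introns were in the group (9.68%), in 2 genes. The share rests on these 3 introns. The list was made by gene, and whether they are the introns of the known polyadenylation was not tested. AT1G58602, the disease resistance gene RPP7, held 2 of them. Its intron 1 (chr1:21746500-21753883, plus strand, 7384 bp) overlaps the pseudogene AT1G58561 on the same strand. It had 5ʹSS ratios of 0.417 for CB-RNA, 0.493 for RNAe, 0.501 for RNAe + RNAf, 0.160 for RNAf and 0.0466 for mRNA, and 3ʹSS ratios of 0.103, 0.134, 0.117, 0.0608 and 0. In mRNA there were 36 intronic reads at its 5ʹ site and 0 at its 3ʹ site, a fold of at least 13.3 (adjusted p = 1.55e-10, Fisher's exact test). Its intron 3 (chr1:21758659-21760158) had 309 and 232 reads against 137 and 585 in CB-RNA and 23 and 107 against 27 and 845 in mRNA. The 5ʹSS ratio was thus the higher in mature RNA at both introns of RPP7. At intron 3 the intronic reads in mRNA were fewer at the 5ʹ than at the 3ʹ site, and the asymmetry came with the exonic reads. In RNAf the fold at intron 1 was 2.63 (adjusted p = 0.101, Fisher's exact test). Intron 3 had 3 exonic reads at its 5ʹ site in RNAf and was not measured there. FCA, which represses the floral repressor FLC and regulates polyadenylation, had 40 and 127 against 7 and 113 at intron 13 in CB-RNA, and 29 and 77 against 3 and 53 in RNAe (adjusted p = 0.0172, Fisher's exact test). In RNAe + RNAf it had 5 and 27 against 3 and 24, a fold of 1.48 (adjusted p = 1, Fisher's exact test), in RNAf a fold of 0.455, and in mRNA 0 and 315 against 0 and 328. Of 11 circadian clock genes, 1 of 38 eligible introns was in the group, that of PRR9 (2.63%). The median CB-RNA asymmetry over eligible introns was -0.04, 0.02 and -0.07 in the 3 lists and -0.01 in all.

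Sequence at the intron ends was nearly the same in the group and in eligible introns. GT at the start and AG at the end were found in 98.0% and 98.7%, GTAAGT at the start in 9.50% and 9.31%, and GTATGT in 5.14% and 4.67%. The polyadenylation signal AATAAA, searched on the transcribed strand in the first 300 bases of introns of at least 300 bp, was present in 15.4% (54 of 350) and 15.5% (801 of 5179). The median T content was 40% in the first and 42% in the last 50 bases of both. The 95% intervals of each of these shares overlapped. A second gene overlapped 4.02% of the introns (3.04 to 5.31) and 2.72% of eligible introns, and 1.70% and 0.483% lay in genes of non-coding RNA.

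Several of the largest asymmetries came from unusual gene models. AT4G13495 intron 3 and AT5G18255 intron 1, both in non-coding RNA genes, are listed with a start after their end, and had 77 and 72 reads against 3 and 2128 and 77 and 92 against 11 and 1474 in CB-RNA. The third, AT5G22794 intron 5 (chr5:7610350-7610482, plus strand), had 185 and 159 against 2 and 179, a fold of 104, and 75 and 74 against 0 and 72 in mRNA. LpxC3 intron 3 (chr1:8798868-8804477, plus strand), named for an enzyme of lipid A synthesis, spans 5610 bp and 3 other genes, and LpxC3 is one of several near-identical copies, so that its reads are uncertain. It had 1051 and 1484 against 0 and 97 in CB-RNA. AT2G02770 intron 7 had 5ʹSS ratios of 1.94, 1.63, 1.57, 1.05 and 1.02 and overlaps AT2G02765. AT4G13575 intron 5, with a second donor 202 bases downstream, had folds of 61.6 in CB-RNA, 9.70 in RNAe and 1.32 in RNAf, and AT1G29560 intron 8 had 54 and 116 against 0 and 107 in CB-RNA and 34 and 64 against 0 and 48 in mRNA. A pair of non-coding genes stood out by read number. AT2G24755 intron 10, which is 4 bp long, had 1305 and 150 against 1149 and 1266, and AT1G27921 intron 5, antisense to AT1G27920, had 996 and 96 against 259 and 209. Whether the counting used strand is not stated, so reads of genes on opposite strands cannot be told apart. These introns are listed as the table gives them, and leaving out introns under 20 bp or with a start after the end left the medians and shares at 3-fold of the group inside their intervals.

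In 26 introns the log2 asymmetry, with its pseudocount, was below 0 in both RNAe and RNAe + RNAf, against the direction in CB-RNA. The 4 with the most exonic reads there were covered thinly by intronic reads. MAC3B, a subunit of the spliceosome-activating MOS4-associated complex, had 27 and 1080 against 3 and 693 at intron 7 in CB-RNA and 12 and 523 against 18 and 485 in RNAe. SPK1, a guanine nucleotide exchange factor of cell shape, had 31 and 206 against 3 and 134 at intron 1 in CB-RNA and 9 and 125 against 12 and 108 in RNAe, while its ratios without the pseudocount were nearly equal in RNAe + RNAf, 0.0642 and 0.0633. RSW3, a glycosyl hydrolase of family 31, had 23 and 164 against 8 and 177 at intron 2, and SNRK2.4, a kinase of the osmotic stress response, 22 and 434 against 7 and 476 at intron 1. In none of these 4 did the Fisher test pass in RNAe or RNAe + RNAf, with adjusted p from 0.655 to 1, and the reversal was not detectable at this depth.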

How the data were processed

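The data were 11 directional paired-end libraries in 5 groups, from Col-0 seedlings aged 10 days. After trimming (Trimmomatic 0.39) and alignment (HISAT2 2.2.0 on TAIR10, SAMtools 1.3.1), the authors kept unique alignments and genes above an FPKM minimum (StringTie). For introns of each longest transcript they deposited counts of intronic and exonic reads at both splice sites, with the ratio of the counts, pooled by group. How replicates were joined, the window width and the use of strand are not given in the sources used here. Exonic reads at 5ʹ sites summed to between 5460195 (RNAe + RNAf) and 116244073 (mRNA). The deposited ratios were recomputed from the reads.

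The introns and gene lists were chosen with earlier results of these data known. Named introns had the most 5ʹ intronic reads, the largest asymmetry, at least 3-fold asymmetry in all 4 other fractions, a reversed direction, a place in a list, in 1 of 5 genes with most members (ties by 5ʹ intronic reads), or a position beside the threshold. Fractions were compared over introns with at least 10 exonic reads at both sites, with a pseudocount of 1. Fisher's exact test (two-sided, Benjamini-Hochberg, 0.05) was tested on simulated data. Medians have binomial and shares Wilson 95% intervals. Coordinates are 1-based. Annotation and sequence came from RefSeq TAIR10.1, which lists 99.2% of eligible introns with the same ends. Computations ran under scipy 1.17.1, numpy 2.4.6 and pandas 2.3.3 (Python 3.11.15), with numba 0.67.0, and plots under matplotlib 3.10.9. One intron beside the threshold is not reported here.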

Additional observations from a re-analysis of the deposited data

How the results depend on the processing

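No paired analysis was possible because each table holds one pooled set of reads per group and no column carries a replicate number; for the same reason no replicate could be left out. Of 120 alternatives over 19 results, 105 stayed within 1.5 times the count or inside the 95% interval, and none turned the direction of a median. The number of introns was 3056 at a fold of at least 2, 362 at a fold of at least 5, 688 with at least 100 exonic reads and 756 with at least 50 intronic reads. First introns made up 21.3% at a fold of at least 5, and introns of at least 300 bp 32.9% with at least 50 intronic reads. With at least 100 exonic reads in CB-RNA, 94.0% had a log2 asymmetry above 0 in RNAe. The median asymmetries were then 1.35 (RNAe) and 1.47 (RNAe + RNAf). A pseudocount of 0.5 gave 46.0% at least 3-fold and a median of 1.46 in RNAe + RNAf, and 28.1% at least 3-fold in mRNA. With an adjusted p of 0.01, the Fisher test passed for 31.0% in RNAe and 23.3% in RNAe + RNAf, and with at least 20 exonic reads for 36.2% in RNAe + RNAf. An alternative chosen after seeing the data, without introns under 20 bp or with a start after the end, moved no share at 3-fold and no median outside its interval. RNAe + RNAf had the lowest median of exonic reads at the 5ʹ site, 56.5, while mRNA had the fewest introns measured (1141) and tested (949).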

Other observations

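In mRNA, 98 of the introns were at least 3-fold higher at the 5ʹ site with a 5ʹSS ratio of at least 0.1, 8.59% of those measured there against 1.01% of eligible introns. A second donor is annotated in 37 of them. In 48, RefSeq has neither a second donor, nor a transcript that retains the intron or ends inside it, and the following were picked among these after their values were seen. AT4G35335 intron 4, in a nucleotide-sugar transporter gene, had 252 intronic and 413 exonic reads at the 5ʹ site and 1 and 409 at the 3ʹ site in mRNA, with 5ʹSS ratios of 0.869 in CB-RNA and 0.845 in RNAf. AT1G27520 intron 9, in a gene of a glycosyl hydrolase, had 336 and 590 against 0 and 588 in mRNA and 1290 and 2340 against 9 and 2249 in RNAf. AT2G43560 intron 2, in a gene of an FKBP-type isomerase, had 521 and 4530 against 28 and 4493 in mRNA and 856 and 2358 against 27 and 2181 in RNAf. HDA14 intron 6, in a histone deacetylase gene, had 269 and 616 against 5 and 625 in mRNA. SCPL13 intron 10, 810 bp long and in a serine carboxypeptidase-like gene, had 298 and 1082 against 31 and 914 in mRNA and 3351 and 9364 against 143 and 7518 in RNAf.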
